A study of Mus musculus with 6 samples.

Results

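The 10 genes examined here, which restrain or report signalling through the kinase ERK in cancer-associated fibroblasts (CAFs), were the dual-specificity phosphatases Dusp1, Dusp4, Dusp5 and Dusp6, the Sprouty genes Spry1, Spry2 and Spry4, the Sprouty-related genes Spred1 and Spred2, and the ETS transcription factor Etv5. They were chosen by gene symbol and make up 10 of the 27179 genes in the count table. RNA sequencing covered 6 libraries of GFP+ CAFs, sorted by flow cytometry from 3 mammary tumors of raGFP-Wnt1 mice into a CD34- and a CD34+ fraction, so that each tumor gave 1 library of each fraction. Both fractions carried the same alleles: the MMTV-Wnt1 transgene, which drives Wnt1 in mammary epithelium and causes tumors, and a Pdgfra reporter allele in which nuclear GFP marks cells that express the fibroblast receptor Pdgfra. No treatment was applied and the age of the mice was not given. Whether the tumors came from separate mice was not stated either, so p-values measure the spread between these tumors.

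Growth factors that bind receptor tyrosine kinases activate RAS, RAF, MEK and finally ERK, which switches on transcription of its own inhibitors. Dual-specificity phosphatases remove the activating phosphates from MAP kinases, whereas Sprouty and Spred proteins act further upstream, between the receptor and RAF. Because transcription of many of these genes follows ERK activity, they are often read as an output of the pathway. In fibroblasts the pathway is used by PDGF, FGF and EGF receptors.

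The stretch around the transcription start is shown for the genes with opposite or differing responses below. RefSeq promoters (GRCm38.p6, 250 bases before to 50 after the start) were matched for 8 of the 10 genes, and those of Dusp4 and Spry4 are not shown. Sequences run 5′ to 3′ on the strand of the gene, and capitals mark matches to CGGAA, the core recognised by ETS factors, on either strand. Dusp6 (chr10:99262981-99263280, plus strand) held 3 matches, Spry1 (chr3:37639697-37639996, plus strand) held 0 and Spry2 (chr14:105896770-105897069, minus strand) held 1.
Dusp6: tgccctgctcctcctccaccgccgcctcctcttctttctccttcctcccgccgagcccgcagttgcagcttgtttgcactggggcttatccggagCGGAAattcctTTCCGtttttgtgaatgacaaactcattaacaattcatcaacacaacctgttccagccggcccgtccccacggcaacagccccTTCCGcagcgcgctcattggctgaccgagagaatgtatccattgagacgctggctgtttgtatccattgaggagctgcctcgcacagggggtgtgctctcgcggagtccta
Spry1: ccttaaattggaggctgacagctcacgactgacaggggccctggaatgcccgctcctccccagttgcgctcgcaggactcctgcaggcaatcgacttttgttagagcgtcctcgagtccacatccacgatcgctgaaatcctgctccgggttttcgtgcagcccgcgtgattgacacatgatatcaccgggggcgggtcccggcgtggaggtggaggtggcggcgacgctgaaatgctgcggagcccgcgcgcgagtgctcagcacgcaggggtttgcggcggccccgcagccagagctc
Spry2: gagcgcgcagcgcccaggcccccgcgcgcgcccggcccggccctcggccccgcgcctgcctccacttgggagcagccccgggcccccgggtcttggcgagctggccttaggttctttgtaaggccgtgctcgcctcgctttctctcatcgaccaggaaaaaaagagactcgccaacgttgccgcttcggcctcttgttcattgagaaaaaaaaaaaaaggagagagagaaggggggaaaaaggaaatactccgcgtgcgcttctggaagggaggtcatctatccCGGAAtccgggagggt

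Across the 8 genes, CGGAA was present in 5 (Dusp5, Dusp6, Spry2, Spred1 and Spred2), against 29.9% of 32851 mouse promoters of the same length. The cyclic AMP response element TGACGTCA occurred in 1 of them, Dusp1, and in 1.79% of all promoters. The CArG box, which is bound by serum response factor, occurred in Dusp5 alone, as 2 adjacent matches, and in 1.63% of all promoters. The AP-1 motif TGANTCA was found in 0 of the 8, and in 7.81% of all promoters. Windows of 50 bases show the Dusp1 element (chr17:26508587-26508636, minus strand) and the Dusp5 boxes (chr19:53529048-53529097, plus strand), with those matches in capitals.
Dusp1: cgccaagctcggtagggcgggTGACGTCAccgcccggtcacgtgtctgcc
Dusp5: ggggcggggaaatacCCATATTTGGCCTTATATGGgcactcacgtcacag

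The libraries held between 16238059 and 86609267 counts, with 37979 to 154407 of them on the 10 genes. Cd34 itself was at 74.3 ± 30.2 CPM (counts relative to library size) in CD34- and 948 ± 571 CPM in CD34+ CAFs (SD, n = 3). The difference was -3.63 ± 0.44 on the log2 scale (SE, adjusted p = 0.0414, limma-voom). Since the fractions were sorted by CD34, this is a check of the sort only. The CD34- library of tumor 3 had counts for 14314 genes, the fewest of any library (16253 to 19220 in the others), and the log2 fold change of each gene without the block is also given without it. CPM values are scaled by library size and a composition factor (TMM, a trimmed mean of gene-wise log ratios), and a positive log2 fold change means a higher level in CD34- CAFs. In these sorted bulk samples, fewer cells of a type and less RNA per cell cannot be told apart.

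Read together, Dusp4, Dusp6, Spry1 and Spry4 were higher and Spry2 was lower in the CD34- fraction when the fractions were compared within each tumor, while most of these calls were absent when the tumor was left out of the fit. Without a term for the tumor, 0 of the 10 genes passed an adjusted p of 0.05 by limma-voom, against 0.121% of the 14855 genes tested. At an unadjusted p under 0.05, 3 were higher (7.23% of all genes tested) and 1 was lower (7.10%). By DESeq2 without a tumor term 3 of the 10 passed (Dusp4, Dusp6 and Spry2), against 5.45% of the genes given an adjusted p, and by edgeR 0, against 0.0606%. With the tumor as a block, 4 of the 10 rose in CD34- CAFs (4.32% of all genes) and 1 fell (4.25%). By edgeR with the block 3 of the 10 passed (Dusp4, Spry1 and Spry2), against 3.87% of all genes. In 1 simulated data set, false calls made up more than the nominal share of the calls of limma-voom with the block. Levels did not overlap between the fractions for Dusp4, Dusp6 and Spry1, which lay above (10.4% of all genes), and for Spry2, which lay below (10.0%). Within tumors, 7 genes were higher in CD34- CAFs in all 3 (22.8% of all genes) and 1 was lower in all 3 (23.4%). The median log2 fold change of the 10 genes was 0.52, and that of all genes tested was -0.03.

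**Figure D1:**
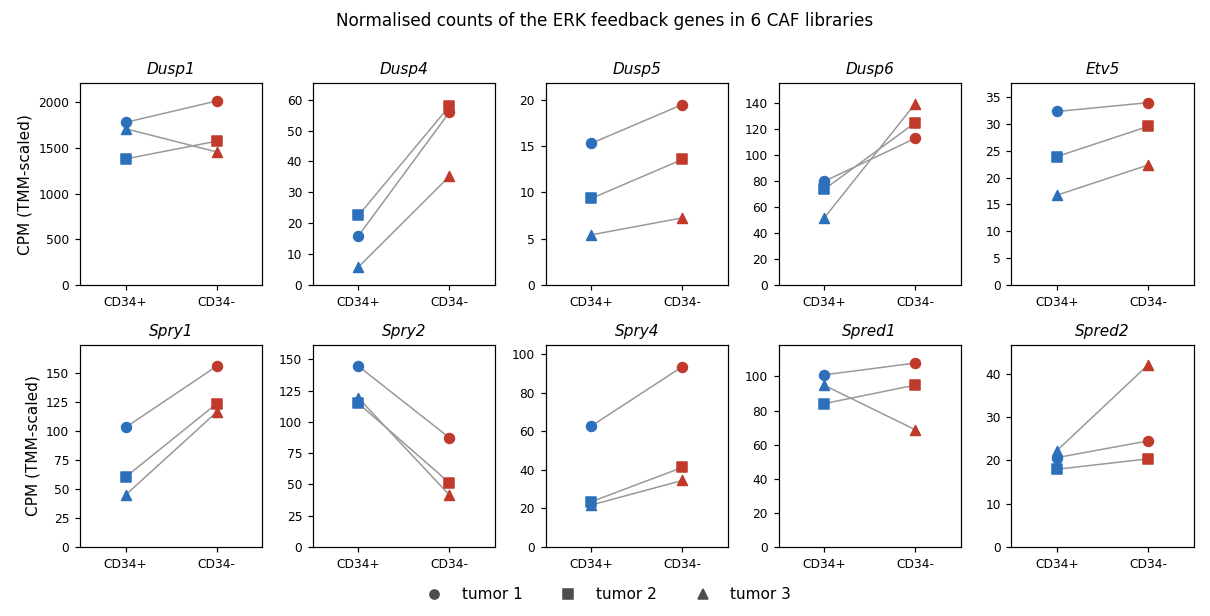
TMM-scaled CPM (vertical axes, linear and from 0) of each of the 10 genes in the CD34+ (blue) and CD34- (red) library of each tumor, with a line joining the libraries of 1 tumor. Lines climb toward CD34- in every tumor for 7 genes (Dusp4, Dusp5, Dusp6, Spry1, Spry4, Spred2 and Etv5), and drop in every tumor for Spry2.

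Dusp4, a nuclear phosphatase that acts on ERK and other MAP kinases, had the largest difference of the 10 genes. It was at 55.9, 57.9 and 35.2 CPM in the CD34- libraries of tumors 1, 2 and 3 and at 16.0, 22.6 and 5.93 CPM in the CD34+ libraries. The lowest CD34- library thus lay above the highest CD34+ library. The difference came to 1.71 ± 0.44 (SE) on the log2 scale (adjusted p = 0.144, limma-voom), and with the tumor as a block Dusp4 rose by 1.66 ± 0.23 (adjusted p = 0.0036). The log2 ratios within tumors were 1.81, 1.36 and 2.57. Without the CD34- library of tumor 3 the fold change without the block was 1.97. The 3 genes whose log2 CPM followed Dusp4 most closely over the 6 libraries, out of 8943 candidates, were Ets1 (Pearson r = 0.998), Gcnt2 (0.995) and Tmem98 (0.993), given as a description since the libraries share tumors and fractions.

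Dusp6, a cytoplasmic phosphatase specific for ERK, was also higher in CD34- CAFs. Its CPM values were 113, 125 and 139 in the CD34- libraries and 79.7, 73.5 and 51.5 in the CD34+ libraries of tumors 1 to 3. The groups did not overlap, and the gap was widest in tumor 3, with log2 ratios of 0.50, 0.76 and 1.43. The log2 fold change was 0.91 ± 0.21 (SE, adjusted p = 0.109 in limma-voom), and with the tumor as a block Dusp6 rose by 0.91 ± 0.18 (adjusted p = 0.0154). By edgeR with the block its adjusted p was 0.063. Without the CD34- library of tumor 3 the fold change without the block was 0.84. The RefSeq span of Dusp6 overlaps that of Gm34921, a gene with no entry in the count table.

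Dusp5, a nuclear ERK phosphatase, stood at 19.5, 13.6 and 7.26 CPM in CD34- and at 15.3, 9.35 and 5.43 CPM in CD34+ libraries. The CD34- library was higher in each tumor, with log2 ratios of 0.35, 0.54 and 0.42, while the groups overlapped. A difference between tumors did not pass for Dusp5 (adjusted p = 0.0852, limma-voom F test of the tumor terms). The fold change was 0.57 ± 0.44 (SE, adjusted p = 0.589), or 0.46 with the block (adjusted p = 0.294, limma-voom). Without the block it moved to 0.21 without the CD34- library of tumor 1, 0.32 without the CD34+ library of tumor 3, 0.34 without tumor 1 and 0.89 without the CD34- library of tumor 3. Dusp5 was counted over 1155 bases, the same as its longest coding sequence with the stop codon, whereas its exons span 2473 bases, so part of its annotated exons lies outside the counted length. For Spred1 the counted length was 2998 against 6784 exon bases, for Spred2 2872 against 4619 and for Dusp1 1942 against 3311. The remaining genes fell short of their exons by less, except Spry2, where the lengths were equal.

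Dusp1, an immediate early phosphatase that acts on p38 and JNK as well as on ERK, had CPM values of 2009, 1571 and 1454 in CD34- and 1776, 1378 and 1707 in CD34+ libraries. The groups overlapped, and the tumors went different ways, with log2 ratios of 0.18, 0.19 and -0.23. The log2 fold change was 0.02, with a 95% interval from -0.46 to 0.51 (adjusted p = 0.972 in limma-voom). With the block the interval ran from -0.27 to 0.35, and without the CD34- library of tumor 3 the fold change was 0.12. Per transcript length, Dusp4, Dusp5 and Dusp6 together reached 80.2, 80.1 and 70.6 RPKM (CPM per kilobase of counted length) in CD34- and 48.3, 43.7 and 25.6 RPKM in CD34+ libraries. This sum leaves out Dusp1, which alone was at 864 ± 151 RPKM in CD34- and 834 ± 110 RPKM in CD34+ CAFs (SD, n = 3).

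**Figure D2:**
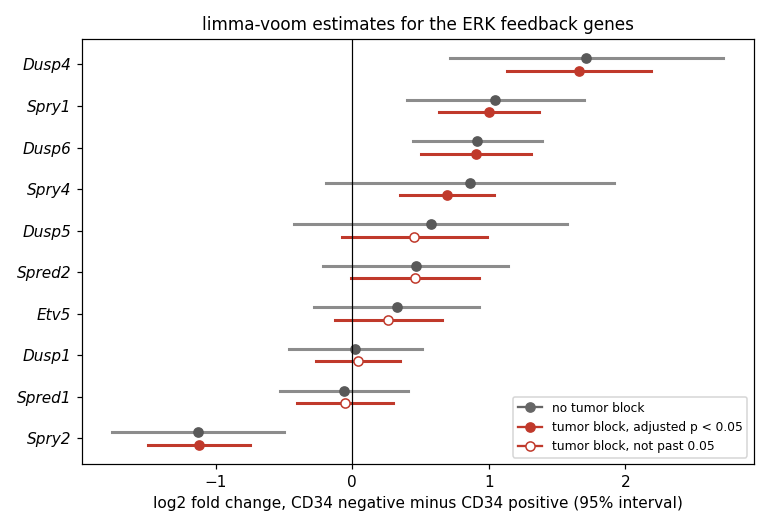
Log2 fold changes (CD34- minus CD34+) of the 10 genes from limma-voom without a tumor term (grey) and with the tumor as a block (red), with 95% intervals as bars and filled red points for an adjusted p under 0.05. Filled red points stand at Dusp4, Spry1, Dusp6 and Spry4 on the positive side and at Spry2 on the negative side.

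The Sprouty genes, whose products restrain receptor signalling to RAF, did not move together. Spry1 was at 156, 123 and 116 CPM in the CD34- and 103, 60.3 and 44.8 CPM in the CD34+ libraries of tumors 1, 2 and 3. The groups did not overlap. Its log2 fold change was 1.05 ± 0.28 (SE, adjusted p = 0.159 in limma-voom), and with the tumor as a block Spry1 rose by 1.00 ± 0.16 (adjusted p = 0.00681). The fold change without the block was 1.12 when the CD34- library of tumor 3 was left out.

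Spry2 ran the other way, at 87.3, 51.3 and 41.5 CPM in the CD34- and 145, 115 and 119 CPM in the CD34+ libraries. Every CD34+ library lay above every CD34- library. The log2 fold change was -1.13 ± 0.28 (SE, adjusted p = 0.133 in limma-voom), and with the block it was -1.12 ± 0.17 (adjusted p = 0.00444). Without the CD34- library of tumor 3 it was -0.91 in the fit with no block. Within tumors the log2 ratios of Spry2 were -0.73, -1.16 and -1.52, and those of Spry1 were 0.60, 1.03 and 1.37.

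Spry4 had a smaller difference on top of a large spread between tumors. Its levels were 93.5, 41.3 and 34.5 CPM in CD34- and 62.7, 23.5 and 21.8 CPM in CD34+ libraries, so the fractions overlapped although the CD34- library was higher in each tumor. With the block it rose by 0.69 ± 0.15 (SE, adjusted p = 0.0238 in limma-voom), and without it the fold change was 0.86 ± 0.46 (adjusted p = 0.437). The value without the block was 0.41 without the CD34- library of tumor 1 and 1.09 without that of tumor 3. The call with the block was lost in edgeR (adjusted p = 0.052), without tumor 1 (0.0525) and without tumor 2 (0.273). With all 6 libraries, Spry4 alone of the 10 genes differed between tumors (adjusted p = 0.00634, limma-voom F test of the tumor terms), against 4.03% of all genes tested. Its mean log2 CPM lay 0.93 above its overall mean in tumor 1 and was -0.37 and -0.55 relative to it in tumors 2 and 3. Spry3, the remaining family member, had 0 counts in all libraries, which allows up to 0.186 CPM in the smallest one.

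Per transcript length, the sum of Spry1, Spry2 and Spry4 was close between the fractions of a tumor while its makeup differed. The sums were 125, 83.1 and 74.0 RPKM in CD34- and 124, 84.4 and 79.8 RPKM in CD34+ libraries of tumors 1, 2 and 3. Spry1 made up 50.1%, 59.6% and 63.0% of the sum in CD34- and 33.3%, 28.7% and 22.5% in CD34+ libraries. Spry2 made up 33.6%, 29.6% and 26.9% in CD34- and 55.7%, 65.3% and 71.5% in CD34+ libraries. Spry1 was thus the most abundant Sprouty transcript in each CD34- library and Spry2 in each CD34+ library. The ratio of Spry1 to Spry2 per length was 1.49, 2.02 and 2.35 in CD34- and 0.597, 0.440 and 0.315 in CD34+ libraries, a mean log2 difference of 2.14. This ratio was chosen after the values had been seen, and its two-sided exact permutation p of 0.1 is the smallest that 3 against 3 libraries can give. The permutation left out the pairing of libraries by tumor, and no conclusion is drawn from it. Without the CD34- library of tumor 3 the difference was 1.99.

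**Figure D3:**
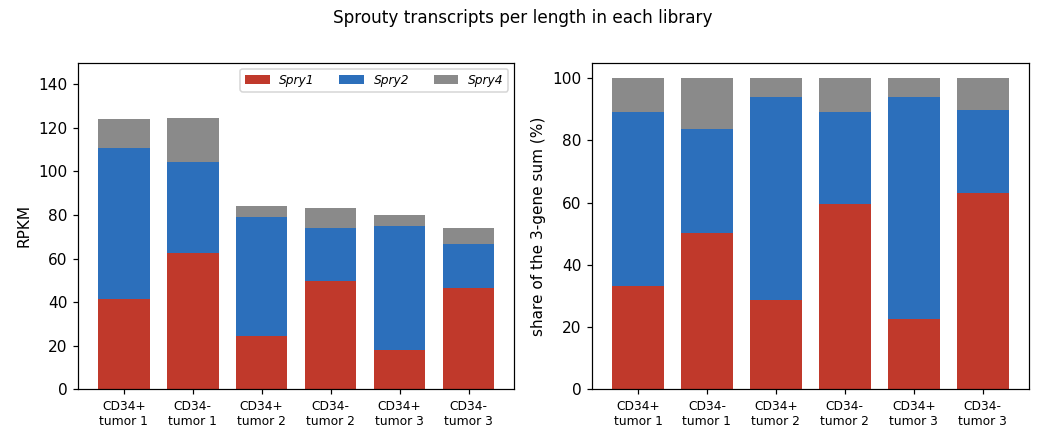
Spry1 (red), Spry2 (blue) and Spry4 (grey) in each library, stacked as RPKM (left) and as percent of their sum (right). Bars of 1 tumor have similar heights, and Spry1 takes 50.1% to 63.0% of the sum in CD34- libraries against 22.5% to 33.3% in CD34+ libraries.

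The Spred proteins suppress RAS by recruiting neurofibromin. Spred1 was at 108, 94.9 and 68.8 CPM in CD34- and 101, 84.1 and 94.9 CPM in CD34+ libraries, with a log2 fold change of -0.06 and a 95% interval from -0.53 to 0.41 (adjusted p = 0.921 in limma-voom), or 0.12 without the CD34- library of tumor 3. The groups overlapped, and the CD34- library of tumor 3 was the lowest of the 6. Spred2 was at 24.5, 20.3 and 41.98 CPM in CD34- and 20.6, 17.9 and 22.2 CPM in CD34+ libraries, and here the CD34- library of tumor 3 was the highest. The log2 fold change of Spred2 was 0.46 ± 0.30 (SE, adjusted p = 0.514 in limma-voom), and it was 0.18 without that library and 0.24 without tumor 3. Spred2 accounted for 38.9% of the Spred1 and Spred2 sum per length in that library and for 17.6% to 19.7% in the others.

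Etv5, an ETS factor induced by ERK in many tissues, was at 33.9, 29.5 and 22.3 CPM in CD34- and 32.2, 23.9 and 16.7 CPM in CD34+ libraries. Each tumor had the higher value in its CD34- library, by log2 ratios of 0.07, 0.30 and 0.42, but the groups overlapped. The fold change was 0.33 ± 0.26 (SE, adjusted p = 0.615), or 0.26 ± 0.17 with the block (adjusted p = 0.424, limma-voom). Without the block it was 0.18 without the CD34- library of tumor 1, 0.12 without the CD34+ library of tumor 3 and 0.48 without the CD34- library of tumor 3.

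Per transcript length, Dusp1 was the most abundant of the 10 genes in both fractions, at 864 ± 151 RPKM in CD34- and 834 ± 110 RPKM in CD34+ CAFs (SD, n = 3). In CD34- CAFs it was followed by Spry1 (52.9 ± 8.45), Dusp6 (44.9 ± 4.75), Spred1 (30.2 ± 6.63), Spry2 (28.8 ± 11.6), Dusp4 (20.5 ± 5.17), Spry4 (12.3 ± 7.04), Dusp5 (11.6 ± 5.28), Spred2 (10.1 ± 4.002) and Etv5 (7.47 ± 1.53 RPKM). Below Dusp1, the ranges of mean ± SD of neighbours in this order overlapped, except those of Dusp6 and Spred1. In CD34+ CAFs the order was Spry2 (60.5 ± 7.70), Spred1 (31.1 ± 2.85), Spry1 (27.8 ± 12.1), Dusp6 (24.4 ± 5.29), Dusp5 (8.68 ± 4.30), Spry4 (7.84 ± 5.05), Spred2 (7.05 ± 0.755), Etv5 (6.35 ± 2.03) and Dusp4 (6.11 ± 3.45 RPKM). Here the ranges of mean ± SD were apart between Spry2 and Spred1 and between Dusp6 and Dusp5, and overlapped between the other neighbours below Dusp1.

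Among 11 tested further genes known as ERK outputs, 2 rose (4.32% of all genes) and 0 fell (4.25%) with the tumor block. They were Il17rd, a membrane inhibitor of FGF signalling (0.77 ± 0.14, adjusted p = 0.0125), and Epha4, an ephrin receptor (0.84 ± 0.17, adjusted p = 0.0165). Levels overlapped between the fractions for Epha4 but not for Il17rd. The ETS genes Etv4 (0.95, adjusted p = 0.0758) and Etv1 (0.65, adjusted p = 0.182) and the negative regulator Spred3 (0.43, adjusted p = 0.415) did not pass in limma-voom with the block. The remaining 6, Phlda1, Ccnd1, Epha2, Fosl1, Errfi1 and Ier3, had log2 fold changes with the block from -0.54 (Phlda1) to 0.80 (Epha2) and did not pass. Errfi1, a feedback inhibitor of EGFR, differed between tumors (adjusted p = 0.00346). The median log2 fold change of these genes without the block was 0.49.

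Of 6 other MAP kinase phosphatases, 1 fell (4.25% of all genes) and 0 rose (4.32%) with the block. Dusp10, which prefers p38 and JNK, was at 14.4 ± 4.92 CPM in CD34- and 31.4 ± 12.9 CPM in CD34+ CAFs (SD, n = 3). It fell by 1.14 on the log2 scale (adjusted p = 0.0311, limma-voom with the block). Its groups overlapped, and the log2 ratios within tumors 1 to 3 were -0.19, -1.18 and -1.89. Dusp2, Dusp7, Dusp8, Dusp9 and Dusp16 did not pass, with log2 fold changes with the block of -0.29, 0.27, 0.16, 1.41 and -0.36. Dusp9 was at 1.76 CPM in CD34- and 0.656 CPM in CD34+ CAFs, and Dusp2 at 1.23 and 1.496 CPM.

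For the pathway core, calls and direction are given side by side. Of 20 genes of the receptor to ERK core, 0 passed with or without the block in limma-voom, and the median log2 fold change was 0.16. At an unadjusted p under 0.05 without the block, 2 were higher (7.23% of all genes) and 0 were lower (7.10%). In 7 of the 20 every CD34- library lay above every CD34+ library (10.4% of all genes), and in 0 below (10.0%). Within tumors, 10 were higher in CD34- CAFs in all 3 (22.8% of all genes) and 0 were lower in all 3 (23.4%). Of 10 genes of the JNK and p38 core, 0 passed and the median was -0.07. Among 14 growth factor receptors, Pdgfrb rose (0.94 ± 0.16, adjusted p = 0.00714) and Ddr2, a collagen receptor (-1.01, adjusted p = 0.00417), Egfr (-0.58, adjusted p = 0.0211) and the HGF receptor Met (-1.61, adjusted p = 0.0247) fell, all with the block.

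**Figure D4:**
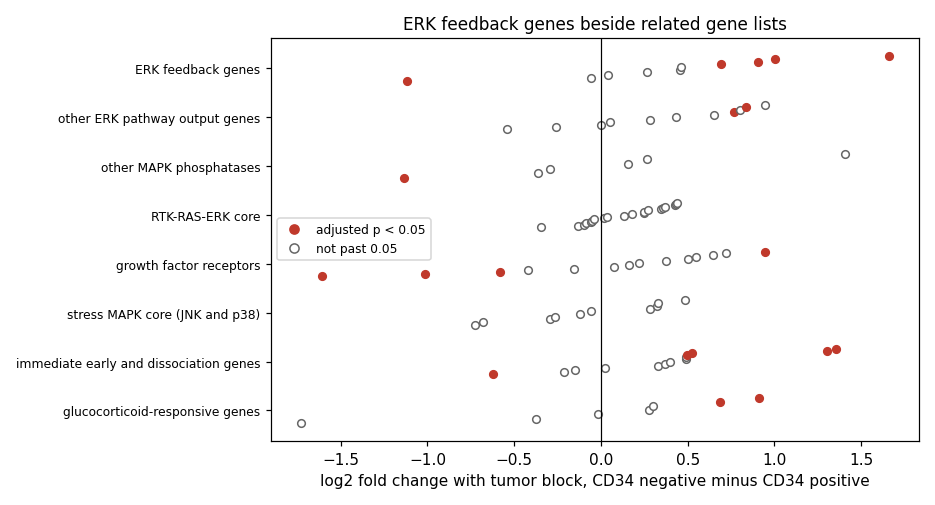
Log2 fold changes with the tumor as a block (CD34- minus CD34+) of each tested gene in the ERK feedback set and in 7 related lists, with vertical offsets only to separate points and filled red points for an adjusted p under 0.05. The core list runs from -0.35 to 0.44 with a median of 0.16 and no filled point. The feedback genes run from -1.12 (Spry2) to 1.66 (Dusp4) with a median of 0.46.

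Stress and hormone genes, which can share inducers with Dusp1, are given beside these values. Of 13 immediate early and dissociation genes, 4 rose (4.32% of all genes) and 1 fell (4.25%) in limma-voom with the block. The largest rises were those of the heat shock genes Hspa1b (1.35, adjusted p = 0.00319) and Hspa1a (1.30, adjusted p = 0.00164). Egr2 rose by 0.52 (adjusted p = 0.0348), Ier2 by 0.49 (adjusted p = 0.0459), and Atf3 fell by 0.62 (adjusted p = 0.0192). Within tumors, 9 of the 13 were higher in CD34- CAFs in all 3 (22.8% of all genes) and 3 were lower in all 3 (23.4%). The median log2 fold change with the block was 0.40, beside 0.46 for the ERK feedback genes. Of the 13, 5 differed between tumors (4.03% of all genes). The sum of the 13 was 22469 to 34198 CPM in CD34- and 19512 to 30461 CPM in CD34+ libraries. Of 7 glucocorticoid-responsive genes, Tsc22d3 (0.91, adjusted p = 0.00804) and Per1 (0.69, adjusted p = 0.0134) rose. The part of these responses in the Dusp and Sprouty values was not tested.

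Markers of other cells were measured in the same libraries. Pdgfra was at 385 ± 83.2 CPM in CD34- and 428 ± 85.8 CPM in CD34+ CAFs (SD, n = 3). Since the cells were sorted by its reporter, this is no separate check of the fibroblast label. The sum of 9 fibroblast markers was 68358 to 94544 CPM against 77643 to 94713 CPM, most of it from the collagen genes among them. With the block, Pdgfrb rose and the matrix proteoglycans Dcn and Lum fell (-1.12 and -0.73, adjusted p = 0.00154 and 0.014). Of 6 pericyte markers, Mcam (2.15, adjusted p = 0.00251), Cspg4 (1.81, adjusted p = 0.00309) and Notch3 (1.55, adjusted p = 0.00601) rose, whereas Kcnj8 (-2.31, adjusted p = 0.0161) and Abcc9 (-1.71, adjusted p = 0.0123) fell. Their sum was 211 to 236 CPM in CD34- and 86.8 to 188 CPM in CD34+ libraries, and the defining marker Rgs5 was at 6.16 ± 3.92 and 0.818 ± 0.500 CPM.

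Sums of 9 epithelial markers were 67.0 to 197 CPM in CD34- and 23.9 to 162 CPM in CD34+ libraries, with 0 genes passing, and Epcam was at 14.6 ± 11.2 and 12.2 ± 11.05 CPM (SD, n = 3). All 9 had a positive log2 fold change without the block, with a median of 0.88. Within tumors, 8 were higher in CD34- CAFs in all 3 (22.8% of all genes) and 0 were lower in all 3 (23.4%). For 7 endothelial markers the sums were 10.4 to 32.5 and 55.3 to 122 CPM, and of the 6 tested Tek alone passed with the block (-3.09, adjusted p = 0.00154), while Pecam1 was at 3.15 and 5.53 CPM on average. Tek made up most of the CD34+ sums, at 65.6, 48.8 and 116 CPM against 13.4, 6.53 and 5.45 CPM in CD34- libraries of tumors 1 to 3. Of the 6 tested, 4 had a positive and 2 a negative log2 fold change without the block, and Tek alone did not overlap between the fractions. For 8 immune markers the sums were 22.1 to 23.9 and 13.0 to 23.7 CPM, with 0 passing, and Ptprc did not exceed 0.481 CPM and had 0 counts in the CD34- library of tumor 3. In 3 of the 7 tested every CD34- library lay above every CD34+ library (10.4% of all genes), and in 0 below (10.0%). At an unadjusted p under 0.05 in limma-voom without the block, 3 were higher (7.23% of all genes) and 1 was lower (7.10%). The part of these other cell types in the ERK feedback values was not tested.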

How the data were processed

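RNA from sorted, snap-frozen CD34- and CD34+ GFP+ CAFs of 3 raGFP-Wnt1 tumors was sequenced in 6 libraries. The authors aligned the reads to GRCm38/mm10 and counted them per gene with featureCounts (Rsubread), and the deposited values are raw counts per gene, without normalization or pooling. Strand use and treatment of multi-mapping reads were not given in the sources used here. Group and tumor came from the sample titles. The study's methods name the steps but no design matrix, and the main fit has no tumor term. Low counts were removed by filterByExpr (minimum count 10), TMM factors were computed, and limma-voom compared the groups with Benjamini-Hochberg adjustment over all 14855 genes tested (two-sided threshold 0.05; R 4.3.3, limma 3.58.1, edgeR 4.0.16, DESeq2 1.42.0). RPKM values used the counted gene length in the table.

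Both libraries of a pair came from the same tumor, and across genes their departures from their group mean had correlations of 0.373, 0.350 and 0.219, so limma-voom with tumor as a blocking term is given beside the main one. It leaves few residual degrees of freedom, and in 1 simulated data set its share of false calls was above the nominal rate. Other alternatives were DESeq2 size factors, no filter, edgeR, DESeq2, limma-trend (prior count 2), quality weights, genes with a symbol only, and each library or tumor left out.

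The 10 genes and the 12 comparison lists were chosen with earlier results of these data known. Named genes outside the 10 were Cd34, all further ERK outputs and MAP kinase phosphatases, up to 4 called genes per list with the largest fold change (both genes where the fits without and with the block ranked them differently), defining markers, and the 3 genes most like Dusp4 (mean log2 CPM of at least 3). Of the comparison lists, 1 gene enters the counts while its name and values are left out. Positions and promoters are from RefSeq (GRCm38.p6). A count of 0 was taken to allow up to 3 counts, for counting error only.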

Additional observations from a re-analysis of the deposited data

How the results depend on the processing

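Over all settings run, the log2 fold changes of the 10 genes kept their direction except for Dusp1 and Spred1, neither of which passed in any setting. Dusp1 was -0.017 and -0.038 with the replicate block without tumor 1 or 2, -0.028 and -0.048 without those tumors and no block, and -0.11 and -0.08 without the CD34- library of tumor 1 or the CD34+ library of tumor 2. Spred1 was 0.038 with quality weights, 0.12 with the block without tumor 3, 0.12 without that tumor and no block, and 0.12 without its CD34- library, against a lowest value of -0.20 without the CD34- library of tumor 1. The cause was not tested.

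The count of the 10 genes that passed was 0 in the main fit, 3 by DESeq2 and, with the tumor pairing as a block, 5 by limma-voom, 3 by edgeR and 5 by DESeq2. With limma-voom and the block it was 4, 4 and 5 without tumor 1, 2 or 3, and leaving out libraries or tumors without the block gave 0 to 1, the 1 being Spry2 without tumor 1. Over all genes, 18 passed in the main fit, 9 by edgeR, 698 by DESeq2, 161 with quality weights, 0 to 34 with a library left out and 0 to 86 with a tumor left out. With the block, 1273 passed by limma-voom, 575 by edgeR and 1733 by DESeq2, and 851 to 2019 by limma-voom without a tumor (1134 without tumor 1). Of the comparison genes, 0 passed in the main fit, 11 by DESeq2, 1 by limma-trend, 2 with quality weights and 0 to 3 without a library or tumor. With the block these were 22 by limma-voom, 13 by edgeR, 29 by DESeq2, and 17 to 30 without a tumor (24 without tumor 1). Genes of the 10 that differed between tumors numbered 1, and 1 to 6 without a library, with 6 without the CD34+ library of tumor 3. The share of all genes was computed only with all libraries in (4.03%). The counts without a library have no such share, and no conclusion is drawn from them.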
